A study of Homo sapiens with 4 samples.

Results

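The departure from additivity of a p53 and a Pontin knockdown was examined in the human breast cancer line SK-BR-3, which has amplified HER2 and a missense-mutant p53. For each gene it is the log2 signal of the combined knockdown less the p53 and the Pontin log2 signals, with the control's added back, so 0 means that the combined change equals the sum of the single log2 changes. Members were the 7752 genes, of 19775 with a probe set of a single symbol, whose brightest such probe set had a geometric mean signal of 110 or more over the 4 arrays. All 4 groups held SK-BR-3 cells selected with puromycin and collected 24 h after siRNA transfection. They were cells with control shRNA and sicon (the labels name this vector both a control shRNA and an empty vector, and leave sicon unexplained), cells with p53 shRNA and sicon, cells with control shRNA and siRNA against Pontin, and cells with p53 shRNA and siRNA against Pontin. Each group was 1 sample on 1 Affymetrix array, labelled from 200 ng of total RNA, and nothing in the labels tells whether arms that share an shRNA were 1 selected population. The luminal and HER2 amplicon markers ERBB2, GRB7, KRT8, KRT18, KRT19 and EPCAM had signals of 356 to 11279 on every array, and 16 markers of immune, endothelial and fibroblast cells had signals of 0.9 to 176.

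RUVBL1 encodes the AAA+ ATPase Pontin, which pairs in a ring with Reptin, the product of RUVBL2. The ring serves the chromatin complexes INO80, SRCAP and TIP60 and the assembly of large protein and RNA-protein machines. Missense-mutant p53 accumulates in many tumours and acts on transcription through other DNA-bound proteins. Log2 effects add where each of a pair of knockdowns multiplies a transcript's level by the same factor with and without the other.

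With 1 array per group there was no residual degree of freedom for a departure, so no p-value is given for any gene. Its size was set beside the spread of departures among genes of like signal, and beside the other probe sets of the gene. Any single array that stands apart gives a departure. The array with both knockdowns was the farthest from the mean of the others for 31.6% of members, the p53 shRNA array for 28.6%, the Pontin siRNA array for 20.7% and the control for 19.0%. Signals of the 18 hybridization control probe sets averaged 1.42 times the control array's on the array with both knockdowns, 1.14 times on the Pontin siRNA array and 1.04 times on the p53 shRNA array. The 3′ to 5′ ratio of the GAPDH control probe sets lay between 0.97 and 1.04 on the 4 arrays, and that of ACTB between 2.66 and 3.48. The part of these differences in the results was not tested.

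Most members lay close to the sum. The median departure was -0.02, with 95% of members between -0.48 and 0.46. A departure of at least 1.5-fold (0.58 in log2) was seen for 201 members (2.59%), upward for 107 (1.38%) and downward for 94 (1.21%). One of at least 2-fold was seen for 34 (0.439%), upward for 24 (0.310%) and downward for 10 (0.129%). Upward departures were thus 53.2% of those past 1.5-fold, a share that was 63.9% after median centring of each array, 66.0% after the median at the same signal was subtracted and 38.9% with plain _at probe sets only. The spread depended on signal: in 20 bins of equal gene number, the robust SD (the scaled median absolute deviation) was 0.33 at signals of 110 to 127 and 0.10 above 3675. Measured in these local spreads, 173 members lay at least 3 of them from their bin's median (2.23%), 116 above and 57 below. At 5 local spreads there were 25 above (0.322%) and 0 below (0.00%), and 16 of those 25 were probe sets of the type that the array maker marks _x_at. This suffix stands for probes that can also bind sequences of unrelated genes.

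**Figure D1:**
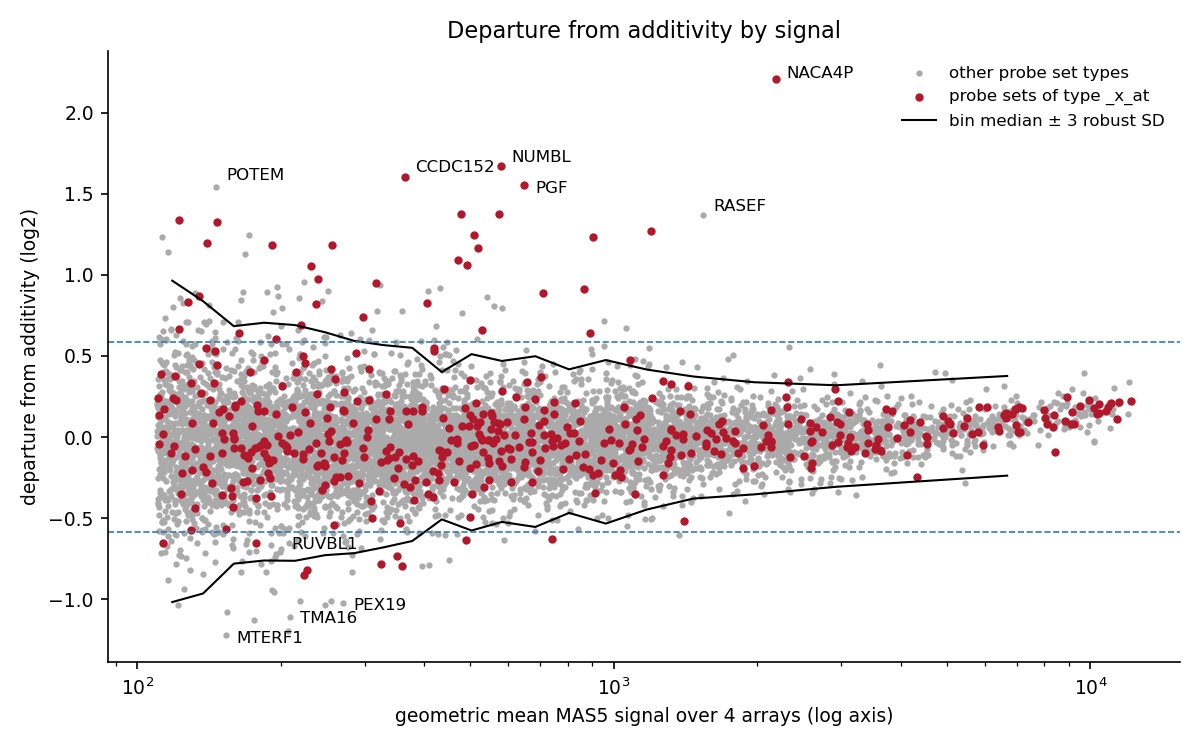
Departure from additivity (log2) of each member against its geometric mean signal over the 4 arrays (log axis). Red points are probe sets of type _x_at, grey points all other types, black lines the bin median plus and minus 3 robust SD and dashed lines 1.5-fold; 18 of the 24 points at or above 1 are red, and none of the 10 at or below -1 is.

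The 4 highest departures belonged to probe sets with signals that were alike on the first 3 arrays and far higher with both knockdowns. NACA4P, a pseudogene of the nascent polypeptide-associated complex alpha subunit, had signals of 1523 in the control, 1696 after p53 shRNA, 1308 after Pontin siRNA and 6742 after both, where the sum of single effects gives 1457. Its departure of 2.21 was 19.3 local spreads. NUMBL, which encodes a Numb-like endocytic adaptor, had 438, 474, 395 and 1361, a departure of 1.67. The array with both knockdowns was again the only one apart. CCDC152, a coiled-coil protein gene, had signals of 243, 299, 255 and 953 in that order, and PGF, which encodes placental growth factor, 445, 591, 416 and 1625. Their departures were 1.61 and 1.55. ZNF160 and ZNF721, both zinc finger protein genes, departed by 1.38 and 1.27, NLN, which encodes the peptidase neurolysin, by 1.37, and UACA, a coiled-coil and ankyrin repeat protein gene, by 1.32. For each of these 4 genes the signal with both knockdowns was the highest.

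All 8 of these genes were measured on _x_at probe sets, and so were 18 of the 24 members at least 2-fold up and 0 of the 10 at least 2-fold down. This type made up 6.32% of members but 30.8% of upward and 9.57% of downward departures. Of 490 members on _x_at probe sets, 33 departed upward (6.73%), against 44 of 4605 on plain _at probe sets (0.955%) and 29 of 2613 on _s_at probe sets (1.11%). The type as a whole had a median departure of 0.01, so its members past 1.5-fold were a subset. In 17 of the 18 with a 2-fold departure the array with both knockdowns was the highest. Over all 18 its signal was a median of 2.20 times that of the highest other array, while the other arrays spanned a median of 1.22-fold. GOLGA8N was the one in which it was not the highest. Other probe sets of the same genes gave no such departure: for 10 of the 18 genes, 23 further probe sets with a mean signal of 50 or more had a median of -0.06 and a range of -0.43 to 0.60, and 1 of them passed 1.5-fold. On further probe sets NLN was at 0.06, 0.04 and 0.28, ZNF721 at -0.09 and UACA at 0.06.

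Of the 6 other genes at least 2-fold up, RASEF had the largest signal. It encodes a Rab-type GTPase with EF hands. RASEF had signals of 1324, 1054, 1393 and 2865, a departure of 1.37, or 10.9 local spreads. Another RASEF probe set annotated to the same reference transcript, of type _x_at, had 1011, 853, 1095 and 2439, a departure of 1.40. However, probe sets annotated to other sequences of the gene had 546, 569, 420 and 358 (departure -0.29) and 155, 165, 156 and 135 (departure -0.31). RASEF was therefore high with both knockdowns on one pair of probe sets and lowest with both on the other pair, and its departure with the mean over probe sets was 0.46, short of 1.5-fold. POTEM, of the POTE ankyrin repeat family, had 150, 104, 121 and 244 (1.54), with the combination alone high. MAGEH1, of the MAGE family, had 245, 153, 125 and 185 (1.25). Its highest signal was that of the control, and each single knockdown was lower than the pair of them together. CEP89, a centrosomal protein gene, had 129, 63.9, 130 and 152 (1.23), with the p53 shRNA array alone apart. Its further probe sets, at mean signals of 57.8 to 97.8, gave -0.05, 0.33 and -0.22. FTX, a long non-coding RNA of the X-inactivation centre, had 176, 129, 148 and 238 (1.13), and NRARP, which encodes a feedback inhibitor of Notch signalling, 120, 84.3, 107 and 167 (1.14). Both were lower with each single knockdown than in the control and highest with the combination.

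**Figure D2:**
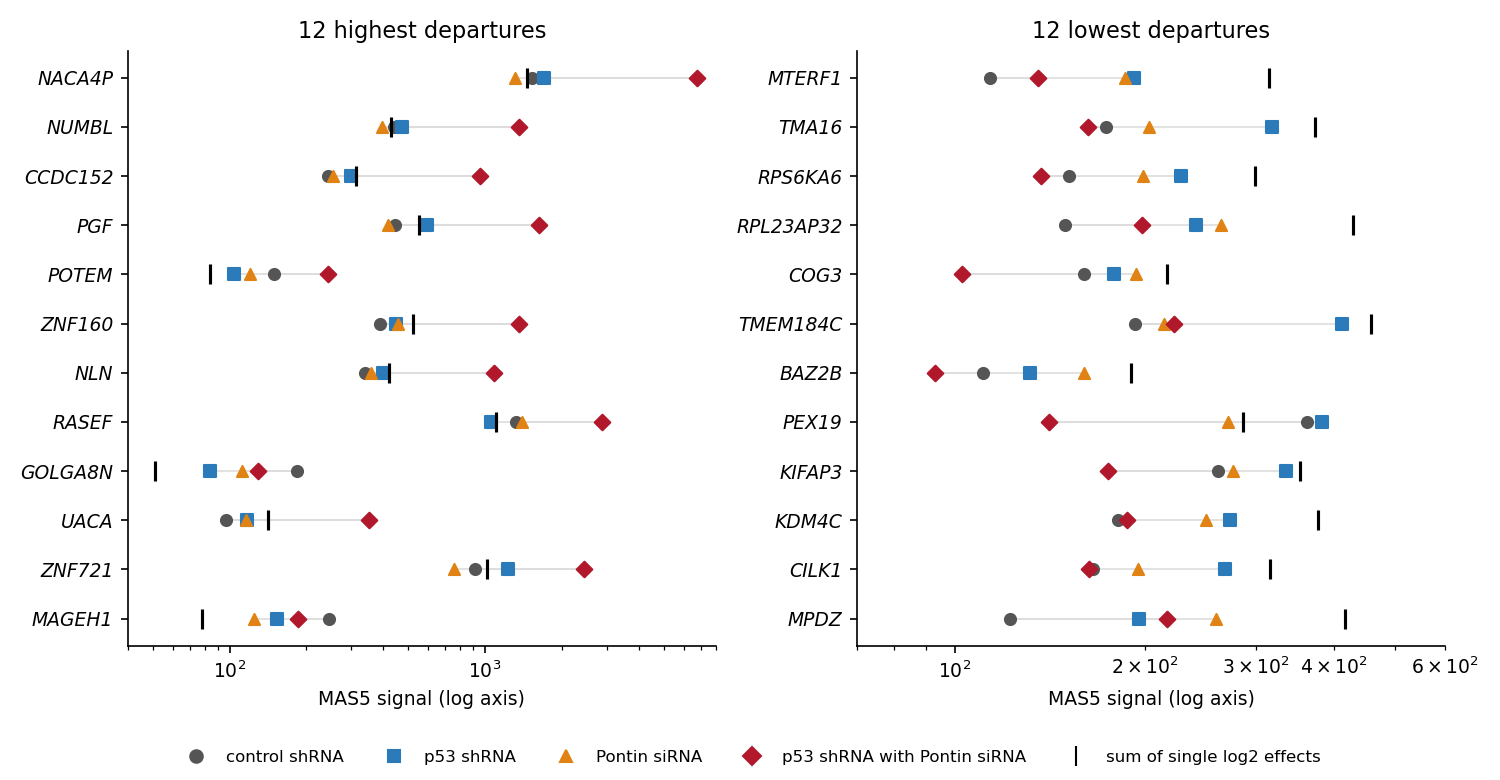
MAS5 signal (log axis) of the 12 members with the highest and the 12 with the lowest departures on each of the 4 arrays, with a black tick at the signal that the sum of single log2 effects gives. In 10 of the 12 genes on the left the diamond of the array with both knockdowns is the rightmost (not in GOLGA8N and MAGEH1); on the right the tick lies above every measured signal except in PEX19, and the diamond lies left of it in each gene.

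The largest downward departures were smaller than the largest upward ones. MTERF1, which encodes a mitochondrial transcription termination factor, had 114 in the control, 192 after p53 shRNA, 186 after Pontin siRNA and 135 after both, a departure of -1.22 and 4.8 local spreads below the median of its bin. Both single knockdowns were higher than the combination, which was near the control. RPL23AP32, a ribosomal protein pseudogene, had 150, 242, 265 and 198 (-1.11), again with both single knockdowns on top. MPDZ, a PDZ scaffold gene, had 122, 196, 260 and 217 (-0.94), with the control alone low. Its other probe set had 154, 170, 201 and 171 (-0.38), short of 1.5-fold, and the mean over probe sets gave -0.66. TMA16, whose product associates with the translation machinery, had 174, 319, 203 and 163 (-1.20). TMEM184C, a transmembrane protein gene, had 193, 411, 215 and 223 (-1.04). For these last 2 genes the p53 shRNA array alone was high. RPS6KA6, which encodes the kinase RSK4, had 152, 229, 199 and 137 (-1.13), and KDM4C, a histone demethylase gene, 181, 273, 250 and 187 (-1.01). The last pair was back near the control with both knockdowns. CILK1, a ciliogenesis kinase gene, had 165, 269, 195 and 163 (-0.96). PAK4, a p21-activated kinase gene, had 257, 316, 337 and 233 (-0.83), but 0.15 on its other probe set.

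For a further group the array with both knockdowns was the lowest. PEX19, which encodes the import receptor for peroxisomal membrane proteins, had 362, 382, 272 and 141, a departure of -1.03. COG3, a Golgi tethering complex gene, had 160, 179, 194 and 103 (-1.08), BAZ2B, a bromodomain gene, 111, 132, 160 and 93.0 (-1.03), and KIFAP3, which encodes a kinesin-2 subunit, 262, 335, 276 and 175 (-1.01). IKBKG, which encodes the NF-kB essential modulator NEMO, had 142, 145, 151 and 87.8 (-0.82). The other PEX19 probe set, at 117, 111, 120 and 108, departed by -0.07, and the mean over probe sets gave -0.55, so the PEX19 value rests on 1 probe set. For IKBKG the other probe set, with a mean signal of 48.6, was at -0.67, but with the control the lowest.

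Sorted by which ratios over the control reached 1.5-fold, upward departures were in no ratio for 54 of 107, in the combination alone for 35, in a single knockdown alone for 14 and in both a single one and the combination for 4. Over all members these classes held 92.4%, 3.84%, 1.74% and 1.99%. Of the 35 seen in the combination alone, 26 were on _x_at probe sets. The other 9 included RASEF, POTEM and SRF, which encodes serum response factor, with signals of 100, 88.1, 125 and 175 (departure 0.67). Chosen after its value was seen, MED26, a Mediator subunit gene, was also among them, with 214, 193, 241 and 404 (0.90). Among the 94 downward departures, 57 were in no ratio, 21 in a single knockdown alone, 10 in the combination alone and 6 in a single one and the combination.

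A single knockdown and the combination both reached 1.5-fold for 154 members, of which 4 departed upward and 6 downward. The genes described here were chosen by their departure, NUDT19 for one within 0.1 of 0. A departure is the difference between the pairs, so that difference was set by the choice. In local spreads from the bin median, it was -2.6 for NOTCH1, -2.3 for TGFBI and 2.9 for BASP1. For HDGFL3, P2RX5 and ZNF789 it was 2.2, 1.9 and 1.9, so all of the genes just named were under 3 local spreads. MPDZ, described above and also of this class, was past 3, at -3.7. NOTCH1, which encodes a receptor of cell fate signalling, had 92.4, 218, 116 and 152, so its p53 shRNA log2 ratio was 1.24 without and 0.39 with Pontin siRNA. TGFBI, a secreted matrix protein gene, had 80.9, 165, 115 and 137, and ratios of 1.03 and 0.24. In both genes the p53 shRNA ratio was larger without Pontin siRNA. BASP1, a membrane-bound signalling protein gene, had 195, 426, 115 and 388, and p53 shRNA ratios of 1.13 without and 1.75 with Pontin siRNA, a departure of 0.62. This departure was 0.16 on the linear scale and 0.55 with a pseudocount of 16, both short of 1.5-fold. HDGFL3, P2RX5 and ZNF789 were lower with p53 shRNA by -1.43, -1.10 and -1.20 without, and by -0.84, -0.50 and -0.60 with Pontin siRNA. The HDGFL3 departure of 0.59 was -0.07, 0.27, -0.80, 0.58 and 0.03 on its further probe sets of mean signal 50 or more, so it was not shared between them. Further ZNF789 probe sets, at mean signals of 80.3 and 56.5, were at -0.03 and 0.04. Their p53 shRNA ratios without Pontin siRNA were 0.06 and -0.03, so they did not share the fall. With a pseudocount of 16 the departures of HDGFL3, P2RX5 and ZNF789 were 0.52, 0.51 and 0.51, all short of 1.5-fold, as was that of HDGFL3 after quantile normalization (0.58). On the linear scale that of TGFBI was -0.55, short of it too. NUDT19, a Nudix hydrolase gene, was the only member with both single ratios past 1.5-fold and a departure within 0.1 of 0. Its signals of 278, 178, 179 and 123 gave single ratios of -0.64 and -0.63 and a combined ratio of -1.18. On the linear scale its departure was 0.63, past 1.5-fold.

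Agreement between probe sets of one gene was weaker for the departure than for either knockdown. Among 2971 genes with a second probe set at a mean signal of 110 or more, departures of the brightest and the next probe set correlated across genes with Pearson's r of 0.10 and Spearman's rho of 0.14, with the same sign in 56.4%. The mean Pontin ratio of the 2 matched pairs gave 0.53 and 0.49, and the mean p53 ratio 0.55 and 0.45. All points of a correlation share the same 4 arrays, and genes are not independent replicates, so these are descriptions. Of 43 genes past 1.5-fold on the brightest probe set, the next one passed 1.5-fold on the same side for 2 (4.65%), with a median of -0.06 in that direction. For the mean Pontin ratio these values were 22 of 66 (33.3%) and 0.42, and for the mean p53 ratio 11 of 26 (42.3%) and 0.33. The departure carries larger array noise than a mean ratio, since each log2 signal enters it at full weight and enters a mean ratio at a weight of 0.5. Divided by 2 to bring it to the same noise (if arrays are equally noisy), it passed 1.5-fold for 20 members (0.258%). The mean p53 ratio did so for 60 higher (0.774%) and 47 lower (0.606%), and the mean Pontin ratio for 54 higher (0.697%) and 142 lower (1.83%).

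Over all further probe sets with a mean signal of 50 or more, 45 of the 107 upward and 28 of the 94 downward members could be checked. Of these, 3 and 5 had another probe set past 1.5-fold on the same side. For scale, at a signal minimum of 55, brightest probe sets departed upward for 191 and downward for 212 of 9234 genes. Further probe sets had the same sign as the brightest in 36 of 79 for upward and 25 of 45 for downward members. All of a gene's others had the opposite sign for 22 upward and 9 downward members, and the same sign for 13 and 12. NT5E and the other genes named below are from the 8 with another probe set past 1.5-fold. NT5E encodes CD73, the ecto-enzyme that makes adenosine from AMP. It had 122 in the control, 282 after p53 shRNA, 113 after Pontin siRNA and 162 after both on its brightest probe set, a departure of -0.68. Its second had 94.6, 182, 74.6 and 80.6 (-0.83) and another 60.3, 99.7, 54.7 and 50 (-0.86). All 3 were highest on the p53 shRNA array. The p53 shRNA ratio on the brightest was 1.20 without and 0.52 with Pontin siRNA. A dimmer NT5E probe set, with a mean signal of 15.1, was at 0.55. IL17RA, the interleukin-17 receptor gene, had 96.4, 153, 135 and 128 (-0.75), and its further probe sets were at -0.39, -0.06 and -0.67. On the linear scale IL17RA was at -0.584, just short of 1.5-fold. CD99L2, a membrane glycoprotein gene, was at -0.88 and -1.30, with the Pontin siRNA array high and the combination lowest on both. TCAF1, a channel-associated protein gene, was at -0.60 with others at -0.78, -0.53 and 0.25, and PRRC2A at -0.65 with others at -0.60 and 0.23. TCAF1 was short of 1.5-fold after median centring (-0.57), quantile normalization (-0.584), cyclic loess (-0.57) and subtraction of its bin's median (-0.55). It was also short of it with a pseudocount of 16 (-0.58) and with the mean over probe sets (-0.37), and PRRC2A with the pseudocount (-0.57). SLC35D4, of the nucleotide sugar transporter-like family, was at 1.19 and 0.60, both on _x_at probe sets, and RASEF is described above. The last of the 8 is not named here.

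**Figure D3:**
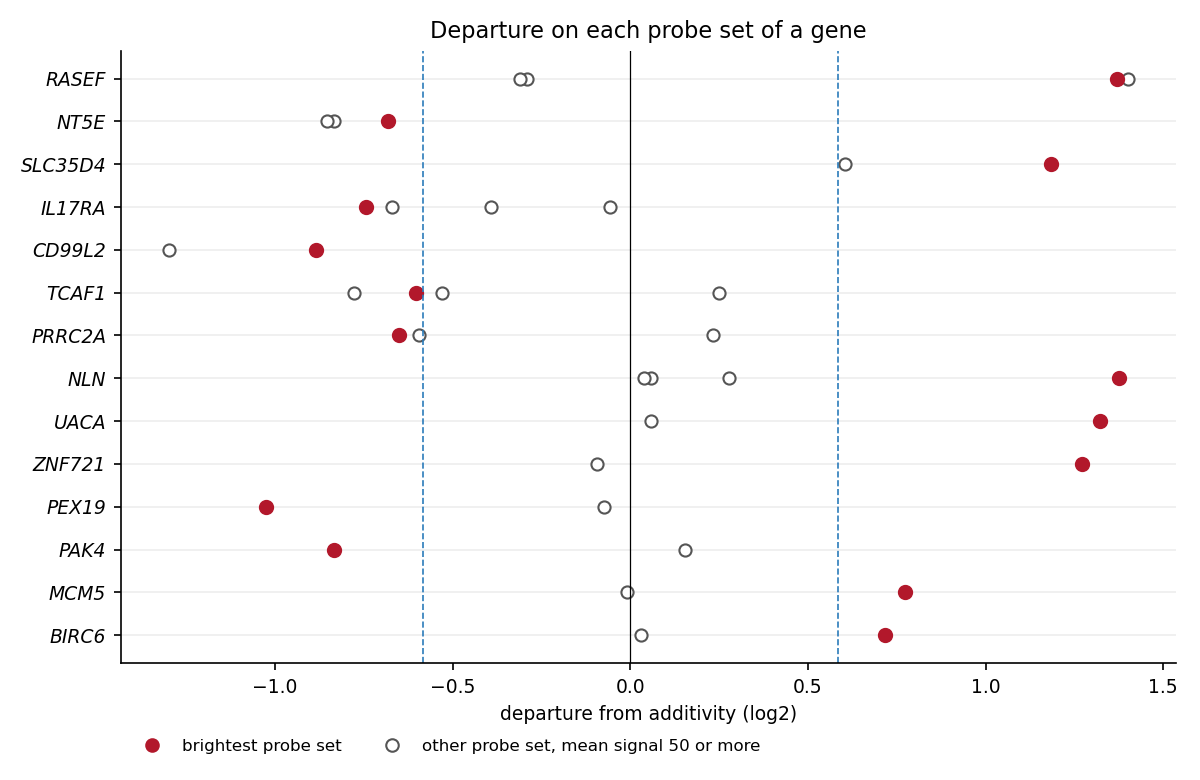
Departure from additivity (log2) on every probe set with a mean signal of 50 or more for 14 genes, filled for the brightest and open for the others; dashed lines mark 1.5-fold. The 7 upper genes have a second probe set past 1.5-fold on the same side, and the 7 lower genes, chosen as examples, have the others near 0.

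RUVBL1, the target of the siRNA, departed downward. Its signals were 478 in the control, 398 after p53 shRNA, 127 after Pontin siRNA and 65.8 after both, where the sum gives 106. The Pontin siRNA ratio was -1.91 in control shRNA and -2.60 in p53 shRNA cells, a departure of -0.69 and 2.7 local spreads below its bin's median, on its single named probe set. On a linear scale, where single changes in signal are added, the combination lay above the sum, at 0.46 in log2, and with a pseudocount of 16 the departure was -0.56, short of 1.5-fold. RUVBL2 had 2428, 2575, 2771 and 2723, a departure of -0.11, but 0.09 on its other bright probe set. Among 39 members of the list of Pontin and Reptin complexes, RUVBL1 and YEATS4 departed downward, 0 upward, and the list median was -0.07 against -0.02 over all members. YEATS4, a subunit gene of SRCAP and TIP60, had 327, 340, 184 and 125 (-0.61), with Pontin siRNA ratios of -0.83 and -1.45. Its departure was short of 1.5-fold after median centring (-0.582), cyclic loess (-0.581), subtraction of its bin's median (-0.575) and with a pseudocount of 16 (-0.56).

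The fall with Pontin siRNA was larger in p53 shRNA cells over most genes that were lower with it. These 142 members were chosen by the mean ratio of 2 pairs that share no array, Pontin siRNA over sicon with control shRNA and the same with p53 shRNA. Their median ratio was -0.68 in the first pair and -0.86 in the second, and the second was lower for 123 of 142 (86.6%), against 4267 of all 7752 members. Without RUVBL1 the medians were -0.68 and -0.85. With no signal minimum the order turned, with medians of -1.08 and -0.96 over 2037 genes. Departures past 1.5-fold downward (1.21% of all members) were seen for 8 of the 142, RUVBL1, YEATS4, PEX19, SLC34A3, ZNF680 and, chosen after their values were seen, ATP6AP1, CENPM and TENT5C. ATP6AP1, an accessory subunit gene of the vacuolar proton pump, had the largest signals, 1803, 1746, 1329 and 847, and Pontin siRNA ratios of -0.44 and -1.04. CENPM, a centromere protein gene, had 311, 294, 170 and 107. With control shRNA the fall was short of 1.5-fold for PEX19 (-0.41), SLC34A3 (-0.24), ZNF680 (-0.25), ATP6AP1 and TENT5C. Such genes entered the 142 through a deeper fall with p53 shRNA, which also makes a departure downward. The 8 of 142 thus partly follow from the choice, and their excess over 1.21% cannot be read as an effect of Pontin siRNA. H2AC6, a histone H2A gene, and UBA6, a ubiquitin-activating enzyme gene, the largest falls after RUVBL1 and also chosen after their values were seen, had ratios of -1.38 and -1.64, and of -1.30 and -1.63. The knockdown of RUVBL1 was itself deeper in the second pair, and ratios of all members were more spread there, with a robust SD of 0.23 against 0.18. Choice by the mean favours neither pair only where arrays are equally noisy, and the part of these differences was not tested.

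Members higher with Pontin siRNA were 54, with median ratios of 0.52 and 0.88 in the 2 pairs, and 10 of the 11 on _x_at probe sets among them departed upward. For p53 shRNA, 47 members were lower, with medians of -0.79 without and -0.76 with Pontin siRNA, and 60 were higher, with medians of 0.54 and 0.96. Of those 60, 25 were on _x_at probe sets and 18 of these departed upward. A member high on the combined array alone can enter either higher class through that array. Its upward departure, and its larger ratio in the second pair, then follow from the choice. NACA4P, for example, had p53 shRNA ratios of 0.15 and 2.37 and Pontin siRNA ratios of -0.22 and 1.99. With _x_at probe sets left out, an alternative added after the data were seen, the 37 genes higher with p53 shRNA had medians of 0.67 and 0.80. With the mean over probe sets of a gene, the 27 higher genes had 0.86 and 0.67, in the opposite order.

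**Figure D4:**
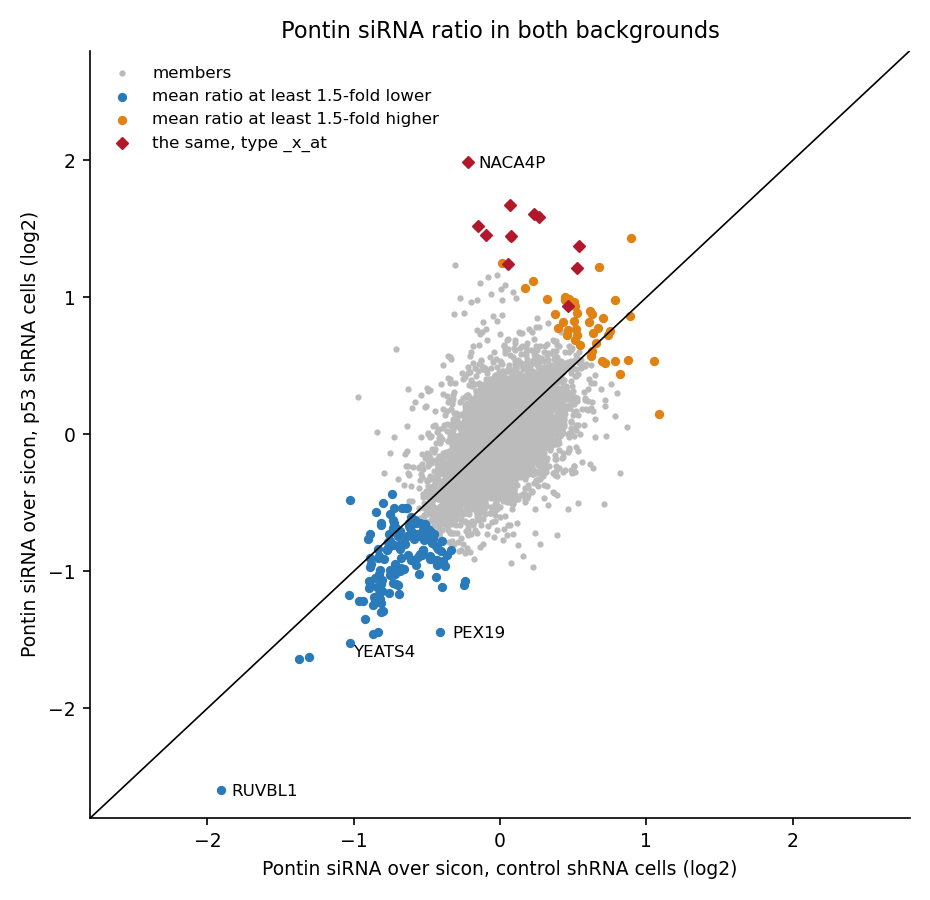
Log2 ratio of Pontin siRNA over sicon with control shRNA (x axis) and with p53 shRNA (y axis) for each member; the diagonal marks equal ratios, and points are coloured where the mean of both ratios is at least 1.5-fold. Most blue points lie under the diagonal, 123 of 142, and the red diamonds (type _x_at among the higher genes) lie above it.

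Across 24 lists, 9 of 504 genes departed by 1.5-fold (1.79%), against 2.59% of all members. Members past 1.5-fold upward were SRF among 18 immediate early genes, E2F2 and MCM5 among 37 G1/S and replication genes, POLR1A among 32 ribosome biogenesis genes and BIRC6 among 24 apoptosis regulators. Downward were IFI6 among 7 interferon response genes, TGFBI among 11 mesenchymal genes, and RUVBL1 and YEATS4. MCM5, a subunit gene of the replicative helicase, had 342, 260, 297 and 387 (0.77), but -0.01 on its other probe set and 0.38 with the mean over probe sets. BIRC6, which encodes a large ubiquitin-conjugating inhibitor of apoptosis, had 1042, 862, 822 and 1116 (0.72), with 0.03 on its other one and 0.37 with the mean. POLR1A, which encodes the largest RNA polymerase I subunit, had 149, 142, 90 and 140 (0.71), with 0.15 and -0.38 on others. E2F2, an S-phase transcription factor gene, had 360, 247, 311 and 338 (0.66). Its other probe set, with a mean signal of 29.2, was at 1.04. IFI6, an interferon-induced mitochondrial protein gene, had 220, 191, 233 and 134 (-0.59). Its departure was short of 1.5-fold after median centring (-0.56), quantile normalization (-0.58), cyclic loess (-0.56), subtraction of its bin's median (-0.56) and with a pseudocount of 16 (-0.54).

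Among cytosolic ribosomal protein genes there were 0 of 31 past 1.5-fold, with a median of 0.15 and 30 of 31 above 0, all but RPL6. They are the brightest list, with a median signal of 9189. When each was given the median departure of its signal bin, the median of these values was 0.07. In the brightest bin 76.3% of genes lay above 0, against 45.0% of all members. After quantile normalization the list median was 0.02, with 19 of 31 above 0. It was 0.10 after cyclic loess, with 30 of 31 above 0, and 0.18 after median centring, with 31 of 31. With the median at the same signal subtracted it was 0.08, with 29 of 31 above 0. Apoptosis regulators had a median of 0.08 with 18 of 24 above 0, G1/S genes 0.05 with 23 of 37, and respiratory chain genes 0.05 with 28 of 40. Mesenchymal and invasion genes had -0.17 with 8 of 11 below 0, interferon response genes -0.17 with 6 of 7, and spliceosome genes -0.04 with 24 of 36. Of all 7752 members 4267 lay below 0. With the mean over probe sets these list medians were -0.28, -0.02 and -0.01. Medians of the unfolded protein, heat shock, hypoxia, cholesterol, mitosis, ribosome biogenesis, proteasome, NF-kB, immediate early, luminal, housekeeping and wild-type p53 target lists lay between -0.04 and 0.05, and SRF and POLR1A were their only members past 1.5-fold. Genes reported as raised by mutant p53 had a median of 0.07, histone genes 0.10 over 5 members and PIKK kinases 0.11 over 5, with 0 past 1.5-fold. The histone median was -0.12 without _x_at probe sets and 0.0048 on plain _at ones, and that of PIKK kinases 0.72 when probe sets of a gene were averaged.

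**Figure D5:**
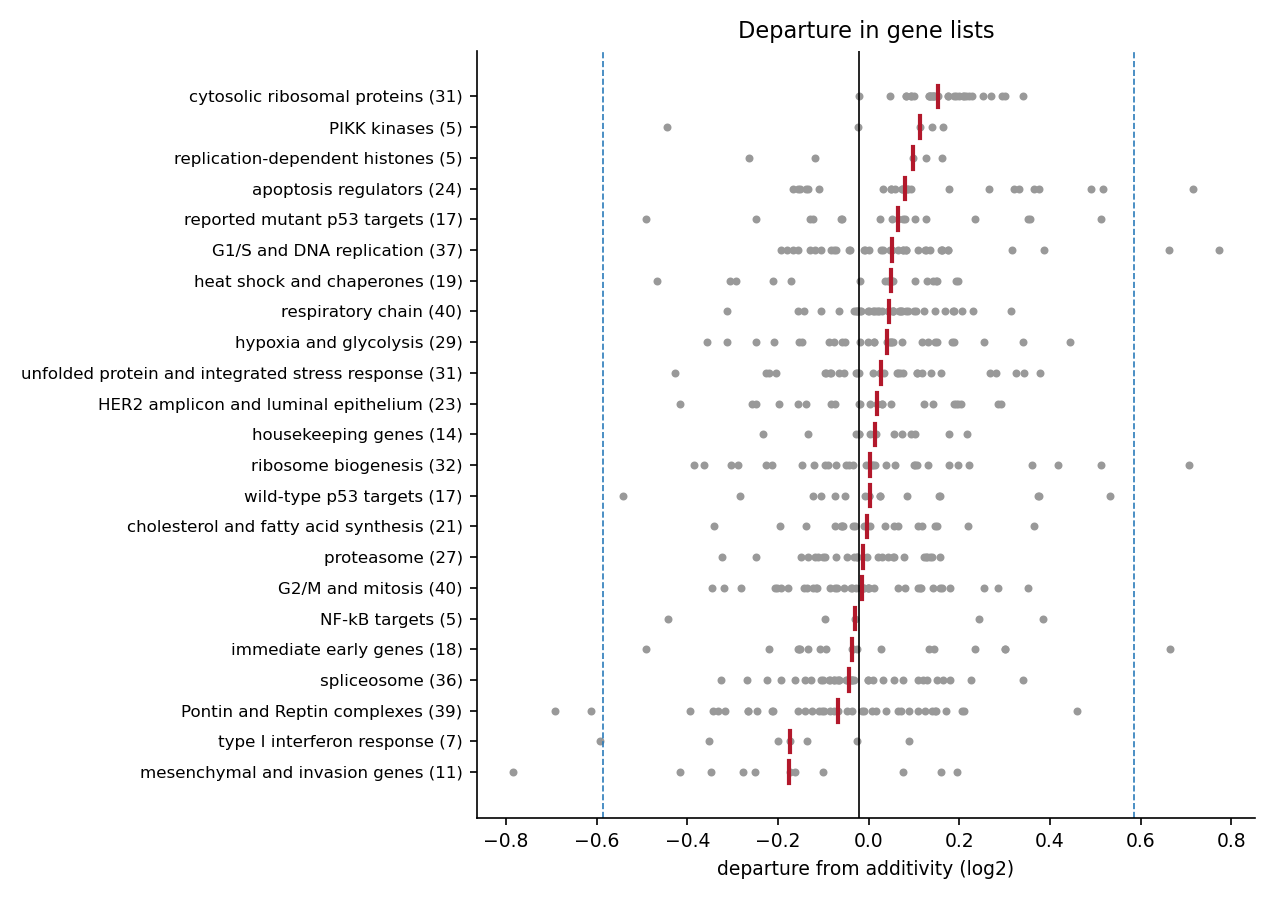
Departure from additivity (log2) of each member (grey points) of 23 gene lists with 3 or more members, the number in brackets, with the list median as a red bar, the median of all members as the black line and 1.5-fold as dashed lines. Of the ribosomal protein genes 30 of 31 lie above 0, while points of the other lists lie on both sides of it.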

How the data were processed

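Each of the 4 arrays was deposited as probe set intensities (MAS5 signals, per the submitters' processing notes), scaled so that the mean without the lowest and highest 2% was 150 on every array. Of 54675 probe sets, 41097 had 1 symbol in the platform annotation, 1801 had several and 11777 were not listed. Deposited signals of 0 (14 in all) were set to 0.1 before log2. Genes were represented by the probe set with the highest geometric mean signal, departures were computed in Python 3.11.15 with numpy 2.4.6 and pandas 2.3.3, and other scalings with limma 3.58.1 in R 4.3.3. With 1 array per group no test was possible, so a fold of 1.5, the spread in 20 signal bins and further probe sets stand in its place. The calculation was checked on simulated data.

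The members, gene lists and rules were chosen with earlier results of these data known. Named genes were the 12 highest and 12 lowest departures, those with a second probe set past 1.5-fold on the same side, up to 5 per pattern and direction, RUVBL1 and RUVBL2, list members past 1.5-fold, and genes with both single effects past 1.5-fold and a departure within 0.1 of 0. The comparison of contrasts between probe sets, the pair medians under other settings and the setting without _x_at probe sets were chosen after seeing the data. Some genes are not reported here. Probe sequences were not used here.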

Additional observations from a re-analysis of the deposited data

Results flagged for a closer look

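GOLGA8N, of the golgin A8 family, moved in opposite directions with Pontin siRNA in the 2 shRNA backgrounds. Its signals were 183 in the control, 84.0 after p53 shRNA, 112 after Pontin siRNA and 129 after both, so the log2 ratio of Pontin siRNA over sicon was -0.71 with control shRNA and 0.62 with p53 shRNA, a difference of 1.34. The control array was the highest and the p53 shRNA array the lowest, and the probe set is of type _x_at. This difference is its departure, which placed it among the 12 highest. Its mean signal of 122 is in the bin with the widest spread, a robust SD of 0.33. Opposite directions were not particular to it, as MAGEH1 had -0.97 and 0.27. With 1 array per group the difference was not tested.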

How the results depend on the processing

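No paired analysis was possible because each group had 1 array and the labels carry no replicate numbers, and no array could be left out because a departure needs all 4. Counts followed the signal minimum. Upward departures (107) numbered 51 at a minimum of 220, 191 at 55 and 4133 with none, and downward ones (94) 33, 212 and 3205. In the same order, upward departures for which the combined knockdown was the array that stands apart (59) numbered 34, 91 and 1207, and, for contrasts on an equal-noise scale, departures divided by 2 past 1.5-fold (20) numbered 11, 39 and 4682. Departures with a second probe set (8) were 4 at 220, and among the departure patterns upward ones in the combination alone (35) were 439 with no minimum. With plain _at probe sets only these 5 counts, in the order upward, second probe set, array apart, combination alone and divided by 2, were 49, 5, 23, 7 and 6. Without _x_at probe sets the last 3 were 30, 9 and 6, and with the mean over probe sets 36, 10 and 32. A pseudocount of 16 gave 3 with a second probe set and 13 divided by 2. The median Pontin siRNA ratio of genes lower with it differed between the pairs by -0.18, and by 0.12, the other way, with no minimum. Signs turned for HDGFL3 (-0.070, arithmetic mean signal), PAK4 (0.15, plain _at only), RUVBL1 (0.46, linear scale) and ZNF721 (-0.094, plain _at only and without _x_at), and the first, second and last follow from another probe set being used. The small departure of RUVBL2 (-0.11) also turned, to 0.035 with the mean over probe sets and 0.089 with plain _at only. Median centring, quantile and cyclic loess scaling left each of these counts within 1.5 times its value, although single genes near the threshold fell short of it. The second probe set count was not computed with the mean over probe sets, nor the divided and pair values on the linear scale. Signals near 110 limit the calls, since their spread is the widest.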

Other observations

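Probe sets with several symbols or with none in the platform annotation were outside the comparison. Of 1478 with a mean signal of 110 or more, 65 departed upward (4.40%) and 28 downward (1.89%). Those of type _x_at gave 41 of 322 upward (12.7%) and 9 downward, and all other types gave 24 of 1156 upward (2.08%) and 19 downward.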
